A study of Mus musculus with 18 samples.

Results

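The G:C base pairs of the mouse VH186.2 heavy chain segment that lie outside the hotspots of activation-induced cytidine deaminase (AID) numbered 93 of the 132 G:C sites from nucleotide 30 to the end of codon 95. They were chosen from the mutation lists as all positions with a germline G or C and no hotspot mark, without codon 33 (nucleotides 97 to 99), where a known exchange raises the affinity for the hapten NP. The other 39 G:C sites of the same window carried an AID hotspot mark, and the lists covered 276 positions in all, of which 146 were G or C. A further 10 unmarked G:C sites lay in the ends of the segment or in codon 33 and were not counted. The rule itself uses the germline base and the hotspot mark, not a mutation level.

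The VH186.2 segment, expressed by B cells that respond to NP, was amplified by RT-PCR from spleen RNA of C57BL/6 mice and sequenced as paired reads. All mice, matched for age (the age itself is not given in the sources used here), received 1 intraperitoneal injection of NP(33)-CGG on alum and were analysed on day 10. The dose is 200 µg in the protocol, while a label of the same samples writes the unit as mg. The 3 genotypes were Exo1+/+ with 7 mice, Exo1DA/DA with 8 mice and Exo1-/- with 3 mice. Exo1DA/DA mice carry in the germline an EXO1 in which a CRISPR/Cas9 knock-in replaced an active-site aspartate with alanine, so that the protein is made without nuclease activity. Exo1-/- mice are germline nulls that lack EXO1 in every cell, so neither line confines the loss to B cells. The design asks how far the catalytic and the other functions of EXO1 shape the hypermutation of this segment.

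AID deaminates cytosine to uracil in single-stranded DNA of transcribed immunoglobulin genes, and does so most readily at the C of a WRC motif (W = A or T, R = A or G), read as GYW (Y = C or T) when the cytosine is on the other strand. It works least well at SYC (S = C or G), read as GRS on the other strand, which is known as a cold spot. A mutation from C records a deamination of the coding strand and a mutation from G one of the template strand. When a uracil is copied by replication it leaves a transition, G to A or C to T, whereas removal of the uracil by the glycosylase UNG leaves a site opposite which any base can be placed. EXO1 is an exonuclease that opens a gap during repair, and further mutations, mostly at A:T, arise when an error-prone polymerase fills that gap.

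The germline window from nucleotide 30 to the end of codon 95, as the lists give it, is shown with the 93 non-hotspot G:C sites in capitals and all other bases, hotspot sites and codon 33 included, in lower case, so that their spread along the segment can be seen. It was rebuilt from the germline bases of the lists and reads 5′ to 3′ on the coding strand. The lists name no genome build, so no chromosome position is given for the gene, Ighv1-72.

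VH186.2 from nucleotide 30 to the end of codon 95: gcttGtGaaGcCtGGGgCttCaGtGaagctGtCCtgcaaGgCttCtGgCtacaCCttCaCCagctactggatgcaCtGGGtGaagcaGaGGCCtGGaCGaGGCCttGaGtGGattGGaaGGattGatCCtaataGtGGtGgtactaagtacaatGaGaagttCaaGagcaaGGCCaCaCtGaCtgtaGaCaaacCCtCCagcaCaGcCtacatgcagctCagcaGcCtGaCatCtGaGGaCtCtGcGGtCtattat

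Of the 93 sites, 52 were G and 41 were C. By sequence 0 of them matched WRC or GYW, 32 lay in the cold motif SYC or GRS (20 G and 12 C), and 3 were part of a CpG. The distance to the nearest hotspot site was 4 nucleotides in the median and 26 at most, and 30 sites lay within 2 nucleotides of one. By region, 17 sites fell in framework region (FR) 1, 7 in complementarity-determining region (CDR) 1, 26 in FR2, 7 in CDR2 and 36 in FR3. Of all substitutions possible at these sites 73.1% would replace an amino acid, and of their transitions 61.3%.

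The lists hold sequences drawn from CDR3 clones in 1000 rounds, so a level is given throughout as the percentage of mutated clones of a mouse that carry a mutation, each sequence being weighted by the share of rounds that drew it. A clone without any mutation has no line, and all percentages are therefore of mutated clones. A dataset number was taken as 1 mouse, because their count equals the number of mice in each genotype. The mice held 21.0 to 323.9 mutated clones, so that a count of 0 allowed a level of up to 0.926% in the largest and 14.3% in the smallest. A level below that of 1 clone stands for a variant drawn in few rounds. Sequences with at least 6 mutations were often shared between mice, with nearly the same set of mutations in both. They made up 59.1% of the 939.0 clones with at least 6 mutations, and 1.75 to 76.1% of all clones of a mouse, with the highest share in the Exo1DA/DA dataset 301. Within a mouse, sequences with similar sets of mutations were joined to lineages. Counting each lineage at most 1 time left 3.00 of the 108.0 clones of dataset 301, 5.21 of the 21.0 of dataset 300 and 40.6 of the 254.2 of the largest Exo1-/- dataset. Results that turn on these sequences are given with and without them, and all p-values measure only the spread between these mice.

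Mutations at non-hotspot G:C sites were common in clones of every genotype. In Exo1+/+ mice 47.2% ± 9.33 (SD, n = 7) of mutated clones carried at least 1 such mutation, against 63.7% ± 23.2 (n = 8) in Exo1DA/DA mice and 49.0% ± 27.5 (n = 3) in Exo1-/- mice. The Exo1+/+ values ran from 31.1 through a median of 47.5 to 59.0%. Those of Exo1DA/DA mice ran from 39.8 to 98.1% and overlapped them. The 3 Exo1-/- mice were far apart, at 53.2, 74.1 and 19.5% (dataset 293, the largest Exo1-/- dataset and dataset 295, an order kept for all values of these mice). Neither difference passed the exact permutation test (2-sided p = 0.103 and 0.9, adjusted p = 0.359 and 0.9 over 14 comparisons). The smallest p that the divisions of the mice allow is 0.000311 for Exo1DA/DA and 0.0167 for Exo1-/- against Exo1+/+.

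Per site, the mean level was 0.956% ± 0.283 of clones in Exo1+/+ and 1.42% ± 0.555 in Exo1DA/DA mice, with 1.03% ± 0.736 in Exo1-/- mice. The level itself moved with the weighting. With each lineage counted 1 time it was 0.533% ± 0.234, 0.802% ± 0.605 and 0.661% ± 0.488 in the order Exo1+/+, Exo1DA/DA and Exo1-/-, which is kept for all unnamed sets of 3 values, and without the sequences shared between mice it was 0.629% ± 0.316, 1.20% ± 0.747 and 0.912% ± 0.727. The number of distinct mutations per site, as a percentage of the mouse's clones, was 1.73 ± 1.40, 2.91 ± 2.30 and 1.36 ± 0.863, where a change drawn in few rounds counts as much as a common one. Weighted by clones, Exo1DA/DA was the higher member in 41 of the 56 pairings with an Exo1+/+ mouse, a difference of 0.463 percentage points that did not pass the exact permutation test (p = 0.0702, adjusted p = 0.328). For Exo1-/- the difference was 0.0788 percentage points (exact permutation p = 0.817, adjusted p = 0.9). The 39 hotspot sites of the window, measured in the same clones, had means of 5.76% ± 1.73, 9.0% ± 2.99 and 8.91% ± 7.38. A hotspot site was thus mutated in 6.15, 7.38 and 8.65 times as many clones as a non-hotspot site, as means of the ratio over the mice of each genotype.

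The higher Exo1DA/DA mean lay in the CDRs, the loops that form the antigen-binding site. In CDR2 the 7 sites had a mean level of 3.02% ± 1.94 in Exo1+/+ and 8.36% ± 5.08 in Exo1DA/DA mice, with 3.77% ± 2.90 in Exo1-/- mice. The medians were 3.90, 8.03 and 4.71%. Single positions weighed on 2 Exo1DA/DA mice with few lineages, nucleotide 158 at 98.1% in dataset 301 and nucleotide 169 at 80.3% in dataset 300. In CDR1 the 7 sites were at 1.93% ± 2.40, 3.34% ± 4.36 and 4.64% ± 4.02. The 3 framework regions were lower, from 0.388% in FR1 to 0.810% in FR2 in Exo1+/+ and from 0.385 to 0.814% in the same regions of Exo1DA/DA mice. With CDR1 and CDR2 left out, 79 sites remained, and their mean was 0.634% ± 0.353 in Exo1DA/DA against 0.687% ± 0.273 in Exo1+/+ mice, so the direction turned (exact permutation p = 0.749, unadjusted). Leaving out the CDRs, here and below, was chosen after seeing the data. In the other direction, when hotspots were narrowed to WRCY/RGYW and 108 sites were counted, the mean was 2.19% ± 0.618 in Exo1DA/DA against 1.25% ± 0.449 in Exo1+/+ mice (exact permutation p = 0.00591, unadjusted), and 81.8% ± 13.6 against 56.6% ± 7.26 of clones were mutated (exact permutation p = 0.00186, unadjusted).

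Non-hotspot sites took 28.5% ± 4.35 of all G:C mutations of the window in Exo1+/+ and 27.7% ± 8.78 in Exo1DA/DA mice, with 22.1% ± 4.15 in Exo1-/- mice. The Exo1-/- values were 26.9, 19.4 and 20.0%, and an Exo1-/- mouse was the higher one in 2 of 21 pairs with an Exo1+/+ mouse (exact permutation p = 0.0667, adjusted p = 0.328). Between Exo1DA/DA and Exo1+/+ the share differed by -0.788 percentage points (exact permutation p = 0.842), and the value turned on the definition of the sites. With the CDRs left out it was 15.0% ± 6.78 in Exo1DA/DA against 25.1% ± 7.13 in Exo1+/+ mice, a difference of -10.1 (unadjusted exact permutation p = 0.0121). With hotspots narrowed to WRCY/RGYW, which adds marked hotspot sites to the count, it was 49.9% ± 9.04 against 42.0% ± 5.80, a difference of 7.95 (p = 0.0678 in the same exact test). The non-hotspot sites hold 93 of the 132 G:C sites of the window, so weighted by clones their share of mutations was well below their share of sites in all 3 genotypes. With each distinct mutation counted 1 time per mouse this was not so, and their share was 67.6% ± 4.12, 69.3% ± 3.57 and 69.9% ± 3.21. In this count most sites carry some change, 57 to 92 of the 93 in a mouse, which moves the share toward that of the sites. It therefore cannot show whether hotspot sites were preferred.

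**Figure D1:**
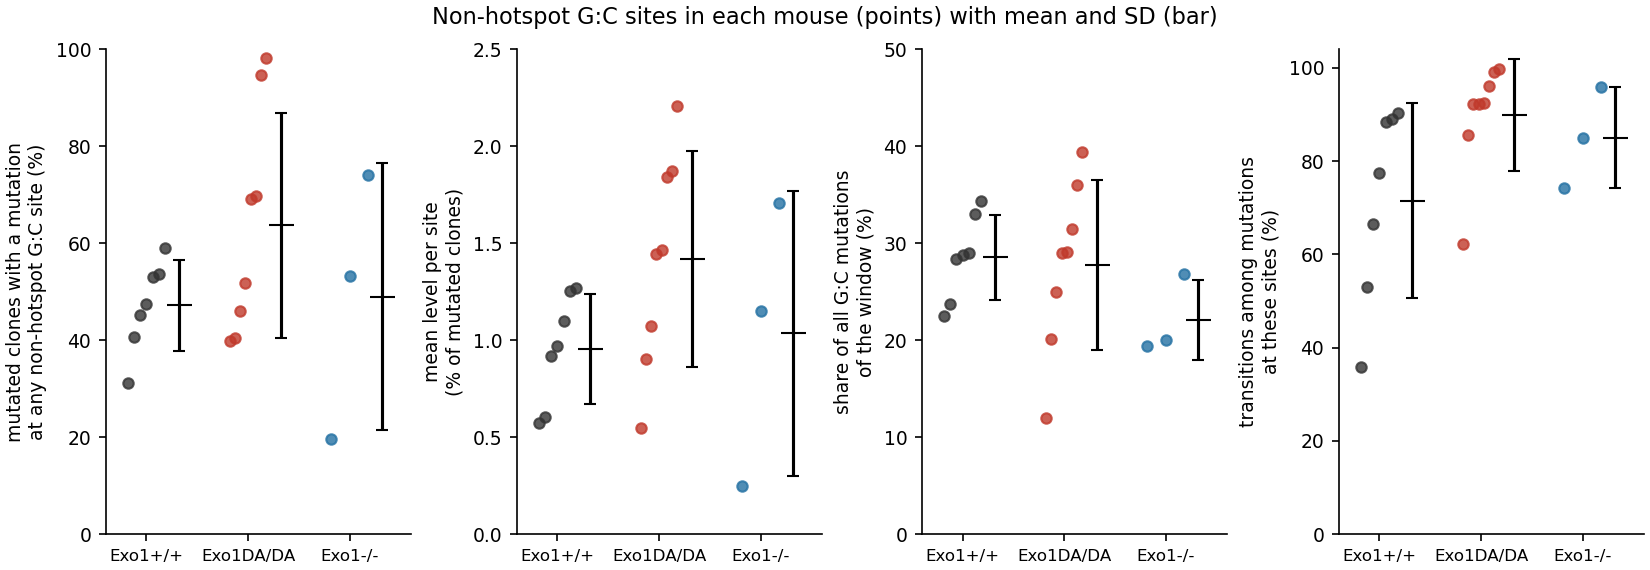
Each point is 1 mouse and the bar beside a genotype is the mean with its SD, for the percentage of mutated clones with a mutation at a non-hotspot G:C site, the mean level per site, the share of all G:C mutations and the share of transitions. The genotypes overlap in all 4 panels, and the Exo1+/+ mice span 35.9 to 90.3% in the share of transitions.

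Transitions led at these sites in most mice. They were 71.5% ± 20.9 of the mutations in Exo1+/+ and 89.9% ± 12.1 in Exo1DA/DA mice, with 85.1% ± 10.8 in Exo1-/- mice. The Exo1+/+ mice ran from 35.9 through a median of 77.4 to 90.3%, and the Exo1DA/DA mice from 62.2 through 92.3 to 99.7%, with overlap, while the Exo1-/- mice were at 95.9, 85.0 and 74.3%. Exo1DA/DA was higher by 18.4 percentage points and in 48 of 56 pairs, which did not pass the exact permutation test (p = 0.0550, adjusted p = 0.328). Exo1-/- was 13.5 percentage points above Exo1+/+ (exact permutation p = 0.333, adjusted p = 0.583). Without the sequences shared between mice the means of Exo1DA/DA and Exo1+/+ were 93.1% ± 5.47 and 66.2% ± 18.9 (exact permutation p = 0.00124, unadjusted). When each distinct mutation of a mouse was counted 1 time, so that clone numbers no longer weigh, the Exo1DA/DA mean was 6.80 percentage points below that of Exo1+/+ (exact permutation p = 0.117, unadjusted), and without the Exo1+/+ dataset 284, the mouse with the lowest share, it was 12.5 above (exact permutation p = 0.118).

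By base change, G to A made up 38.5% ± 14.3 of the mutations in Exo1+/+ and 46.5% ± 24.05 in Exo1DA/DA mice, with 43.0% ± 5.14 in Exo1-/- mice, and C to T 33.0% ± 19.8, 43.4% ± 29.7 and 42.0% ± 13.3. Among transversions, G to C was at 13.4% ± 10.99 in Exo1+/+ and 2.17% ± 3.97 in Exo1DA/DA mice, with 3.32% ± 5.01 in Exo1-/- mice. C to G stood at 6.96% ± 8.56, 0.609% ± 0.852 and 0.290% ± 0.302. G to T was at 7.70% ± 9.59, 7.11% ± 11.97 and 6.11% ± 7.498, with SDs larger than the means. C to A was at 0.440% ± 0.53, 0.194% ± 0.226 and 5.23% ± 8.94, with 15.5% in the highest Exo1-/- mouse. These shares by change were not tested, and the ranges of the genotypes overlap for G to C, with 1.68 to 34.9% in Exo1+/+ and 0.0508 to 11.9% in Exo1DA/DA mice.

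**Figure D2:**
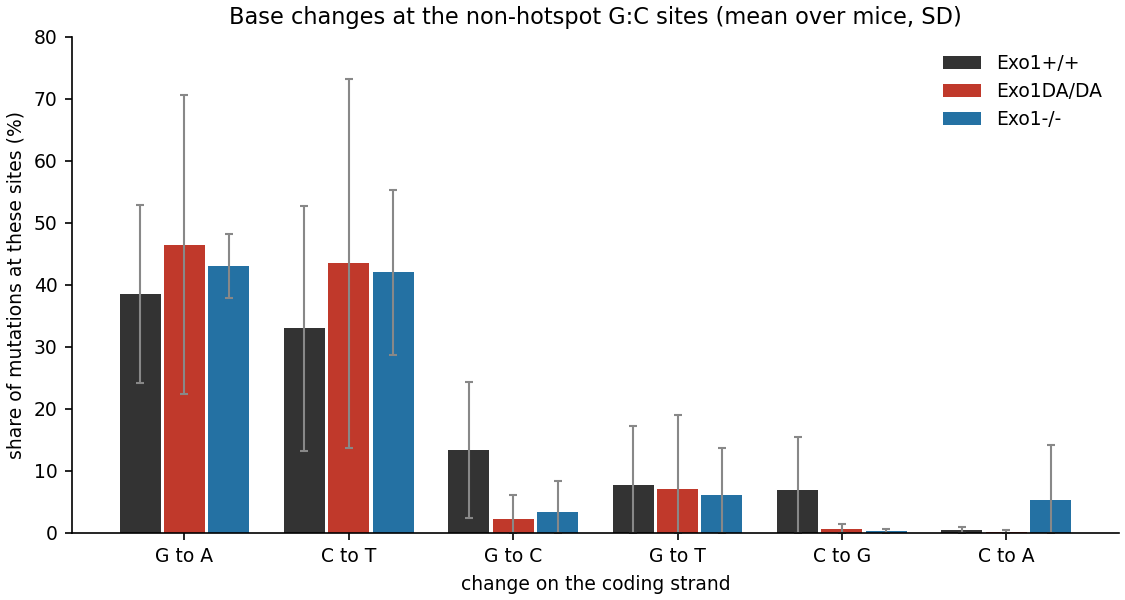
Bars give the mean over mice of each base change's share of all mutations at the non-hotspot G:C sites, in percent, and lines its SD, drawn down to 0 at most. G to A and C to T lead in all 3 genotypes, and G to C and C to G are highest in Exo1+/+ mice.

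No difference between G sites and C sites passed a test. In Exo1+/+ mice the 52 G sites had a mean of 1.05% ± 0.442 and the 41 C sites one of 0.837% ± 0.358. In Exo1DA/DA mice the values were 1.41% ± 0.949 and 1.43% ± 1.14, and in Exo1-/- mice 0.946% ± 0.674 and 1.15% ± 0.822. Within mice G minus C was 0.0401 ± 1.20 percentage points, above 0 in 9 of 18 mice (permutation p = 0.893 with 100000 resamples, adjusted p = 0.893 over 3 differences). Nor did G minus C pass the exact permutation test between genotypes (p = 0.757 for Exo1DA/DA and 0.283 for Exo1-/- against Exo1+/+, adjusted p = 0.9 and 0.583). Single mice leaned strongly either way, from -2.37 percentage points in dataset 301 to 3.00 in dataset 300, both Exo1DA/DA. Transitions were 66.9% ± 20.3 of the mutations from G and 81.6% ± 21.7 of those from C in Exo1+/+ mice, against 85.8% ± 12.1 and 95.5% ± 8.01 in Exo1DA/DA and 82.3% ± 10.4 and 87.2% ± 21.5 in Exo1-/- mice.

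Over the whole window, nearness to a hotspot gave no difference that passed the test, either. The 30 sites within 2 nucleotides of a hotspot site were at 0.962% ± 0.538 in Exo1+/+ and 1.84% ± 1.18 in Exo1DA/DA mice, with 1.41% ± 1.03 in Exo1-/- mice, and the 63 sites farther away at 0.953% ± 0.391, 1.22% ± 0.495 and 0.857% ± 0.674. Near minus far was above 0 in 12 of 18 mice, with a mean of 0.369 ± 0.958 percentage points (permutation p = 0.121, adjusted p = 0.182). It did not pass the exact permutation test between genotypes either (p = 0.265 and 0.3 for Exo1DA/DA and Exo1-/- against Exo1+/+, adjusted p = 0.583 for both). For Exo1DA/DA against Exo1+/+ the difference was 0.606 percentage points, 0.631 with the CDRs left out (unadjusted exact permutation p = 0.0497) and -0.0491 with each distinct mutation counted 1 time per mouse (p = 0.910 in the same exact test). With the ends and codon 33 included, near minus far within mice was 0.711 percentage points (permutation p = 0.00429, unadjusted). This setting adds to the near sites nucleotide 98 of codon 33, mutated in 28.9, 14.3 and 12.1% of clones, so it does not describe the 93 sites alone. Over the 93 sites the Spearman rho of distance and mean level was 0.000699, -0.132 and 0.0239 in Exo1+/+, Exo1DA/DA and Exo1-/- mice, given as a description because sites share clones. The 23 sites 8 or more nucleotides away still had a mean of 1.13% ± 0.560 in Exo1+/+ mice. The 10 sites at exactly 4 nucleotides were the lowest of the distance classes in each genotype, at 0.0675% ± 0.108, 0.127% ± 0.329 and 0.0534% ± 0.0764. Of the clones mutated at a site within 2 nucleotides of a hotspot, 41.9% ± 35.1 in Exo1+/+ and 51.7% ± 28.9 in Exo1DA/DA mice, as well as 36.7% ± 18.8 in Exo1-/- mice, also had a change at a hotspot site no more than 2 nucleotides away.

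Sites in the cold motif were mutated less often than the others. The 32 sites in the cold motif had a mean of 0.407% ± 0.405 in Exo1+/+ and 0.522% ± 0.368 in Exo1DA/DA mice, with 0.114% ± 0.128 in Exo1-/- mice. The other 61 sites were at 1.24% ± 0.543, 1.89% ± 0.845 and 1.52% ± 1.19. Cold minus other was below 0 in 15 of 18 mice, with a mean of -1.17 ± 0.959 percentage points (permutation p = 0.00035, adjusted p = 0.00105 over 3 differences). The exceptions were 1 mouse of each genotype, namely dataset 290 (Exo1+/+), dataset 298 (Exo1DA/DA) and dataset 295 (Exo1-/-). Within a genotype the difference was -0.836 ± 0.867 in Exo1+/+ (exact sign-flip permutation p = 0.0781), -1.37 ± 0.956 in Exo1DA/DA (exact p = 0.0234) and -1.40 ± 1.32 in Exo1-/- mice (exact p = 0.5).

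The cold motif is nearly absent from the CDRs, which hold 1 of the 32 cold sites and 13 of the 61 others. With CDR1 and CDR2 left out the difference shrank to -0.337 percentage points and no longer passed (permutation p = 0.0551). It was -0.762 without the sequences shared between mice (permutation p = 0.00314) and -0.644 with each lineage counted 1 time (permutation p = 0.00043). Counting each distinct mutation of a mouse 1 time turned the sign to 0.140 (permutation p = 0.0487). A mouse had some mutation at 57 to 92 of the 93 sites, while 1 to 26 sites reached 1% of its clones.

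**Figure D3:**
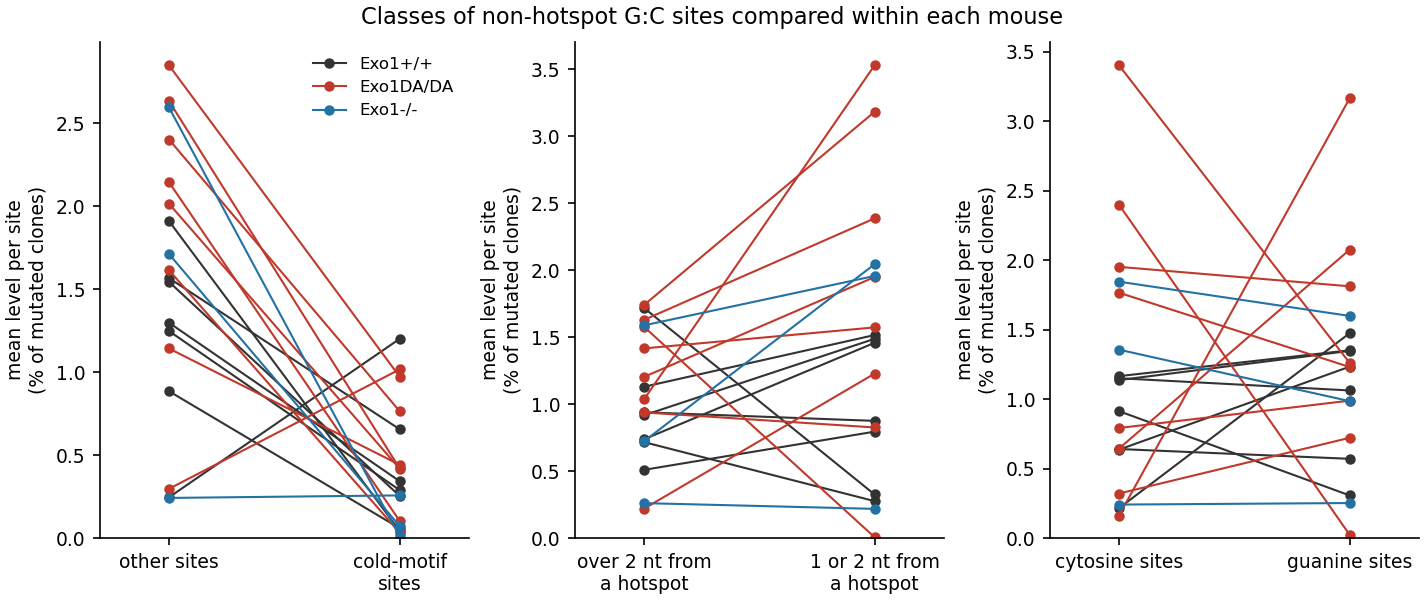
Each line joins the mean levels of 2 classes of sites in 1 mouse, in percent of mutated clones, for other against cold-motif sites, sites over 2 nucleotides from a hotspot against nearer ones, and cytosine against guanine sites. Lines fall toward the cold-motif sites in 15 of 18 mice and cross in the other 2 panels.

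Most of the signal sat at a few positions. The 8 highest sites of a genotype held 50.7% of its summed mean level in Exo1+/+ and 62.5% in Exo1DA/DA mice, with 81.0% in Exo1-/- mice. These shares are of means over 7, 8 and 3 mice and do not compare the genotypes. In a single mouse the 5 highest sites held 49.5 to 99.7% of the mutations at these sites, with means of 78.2% ± 15.2, 78.0% ± 18.7 and 75.7% ± 5.61, which were within the spread of each other. Over all mice, 62 of the 93 sites reached 1% of clones in at least 1 mouse, 18 of them in 1 mouse alone, and 31 did so in none. At the other end 6 sites, nucleotides 83, 138, 158, 164, 169 and 267, reached 1% in at least 9 of 18 mice. The lists of the 8 highest sites shared 4 positions between Exo1+/+ and Exo1DA/DA, 4 between Exo1+/+ and Exo1-/- and 2 between the mutants. Nucleotides 89 and 169 were in all 3. For the positions described next, shares of a site's mutations by change, and of its clones also mutated elsewhere, pool all clones of a genotype unless a dataset is named. They have no spread over mice, weigh mice with many clones more and were not tested. The contexts of these positions are shown with 5 bases on each side and the mutated base in capitals.

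Nucleotide 164, codon 55, CDR2: taataGtggtg
Nucleotide 169, codon 57, CDR2: gtggtGgtact
Nucleotide 158, codon 53, CDR2: tgatcCtaata
Nucleotide 154, codon 52, CDR2: ggattGatcct
Nucleotide 83, codon 28, CDR1: ctacaCcttca
Nucleotide 84, codon 28, CDR1: tacacCttcac
Nucleotide 89, codon 30, CDR1: cttcaCcagct
Nucleotide 90, codon 30, CDR1: ttcacCagcta
Nucleotide 138, codon 46, FR2: cttgaGtggat
Nucleotide 108, codon 36, FR2: cactgGgtgaa
Nucleotide 227, codon 76, FR3, cold motif: accctCcagca
Nucleotide 195, codon 65, FR3, cold motif: ttcaaGagcaa
Nucleotide 267, codon 89, FR3: tctgaGgactc

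**Figure D4:**
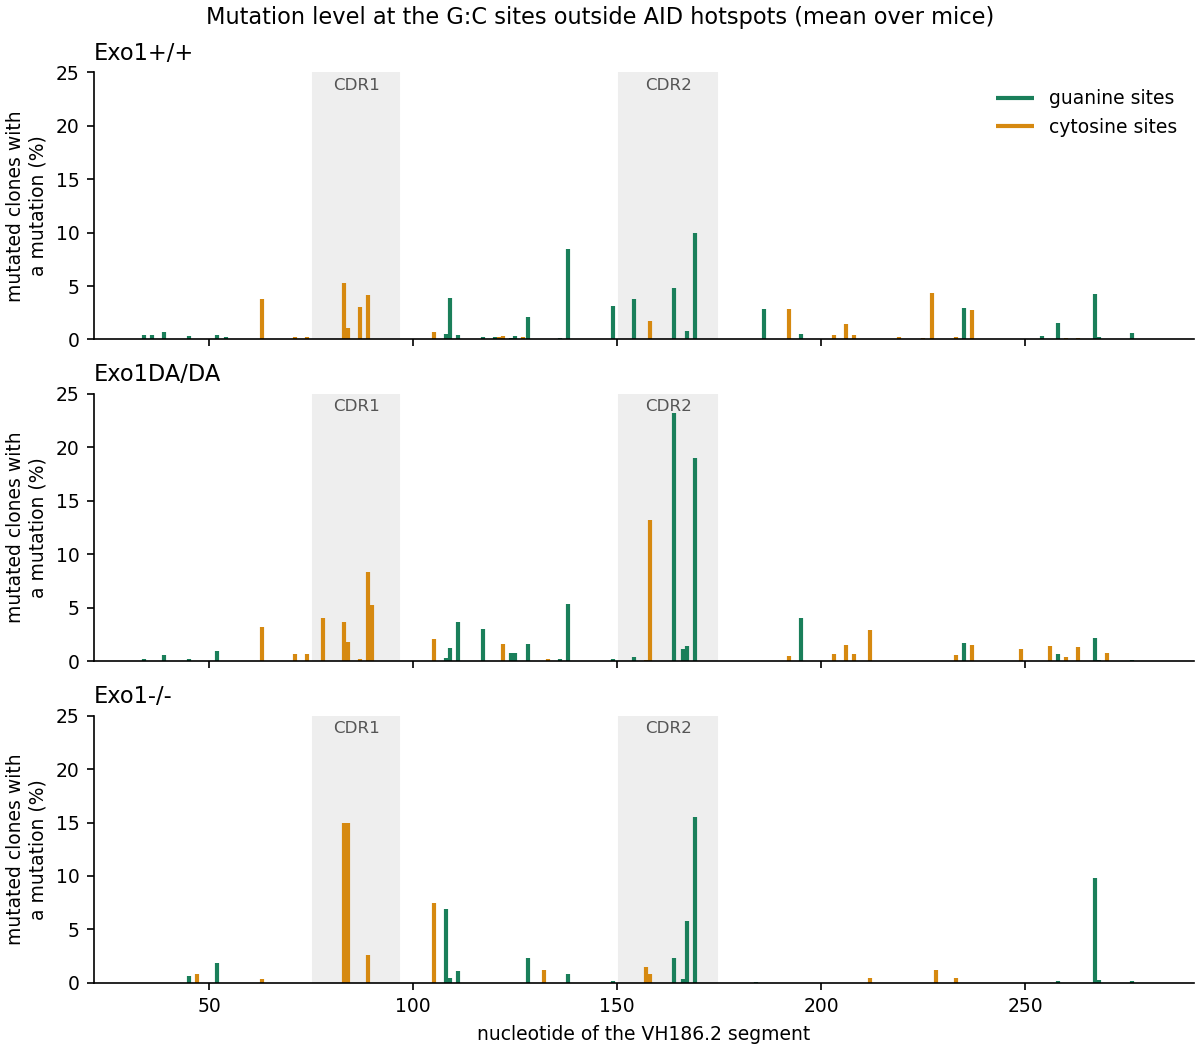
Lines give the mean over mice of the percentage of mutated clones with a mutation at each of the 93 non-hotspot G:C sites along the segment, green for guanine and orange for cytosine, with the CDRs shaded and codon 33 left out. Nucleotide 164 in CDR2 reaches 23.2% in Exo1DA/DA mice, 4.81% in Exo1+/+ and 2.30% in Exo1-/- mice.

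Nucleotide 164 was the highest non-hotspot site of Exo1DA/DA mice. It lies 6 nucleotides from the nearest hotspot site, and nearly all its mutations were G164A, which replaces serine with asparagine (S55N) in CDR2. Its level was 0.00150, 0.797 and 15.7% as lowest, median and highest Exo1+/+ value, with a mean of 4.81% ± 7.17, and 0.00278, 28.7 and 38.9% in Exo1DA/DA mice, with a mean of 23.2% ± 15.8. The Exo1-/- mice were at 1.42, 4.33 and 1.17%. In Exo1DA/DA mice 6 of 8 were above every Exo1+/+ mouse, and the other 2, datasets 298 and 301, were near 0. The difference of 18.4 percentage points had an exact permutation p of 0.0149, but an adjusted p of 0.489 over all 276 positions. It was 20.8 without the sequences shared between mice (exact permutation p = 0.00808), and with each lineage counted 1 time it was 11.1 and no longer passed (exact permutation p = 0.124). With each lineage counted at most 1 time it was 12.9 (exact permutation p = 0.0752).

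Nucleotide 169 was first in Exo1+/+ and Exo1-/- mice and the second in Exo1DA/DA mice. It adjoins the hotspot site at nucleotide 170, and G169A (G57S) and G169T (G57C) made up its mutations. The Exo1+/+ values were 0.0165, 6.83 and 24.4% as lowest, median and highest, those of Exo1DA/DA mice 0, 9.74 and 80.3%, and the Exo1-/- mice stood at 35.2, 10.1 and 1.18%. The genotypes overlap, with dataset 300 of Exo1DA/DA, at 80.3%, far above the other mice. Pooled over mice, G169T was 34.6% of the mutations at this site in Exo1+/+ and 20.7% in Exo1DA/DA clones, with 3.88% in Exo1-/- clones. Dataset 296 alone held about 55 of the 100.8 Exo1DA/DA clones mutated here. The Exo1DA/DA value of 80.3% (95% exact interval 58.1 to 94.6%, counting error only) came from dataset 300, the smallest, with 21.0 clones. Without it the difference from Exo1+/+ fell from 9.04 to 0.2702 percentage points. Of the clones mutated at nucleotide 169, 69.0% in Exo1+/+ and 96.99% in Exo1DA/DA mice, as well as 80.6% in Exo1-/- mice, were also mutated at nucleotide 170.

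Nucleotide 158, whose change C158T (P53L) is in CDR2, was set by 1 mouse in Exo1DA/DA. Dataset 301 had it in 98.1% of clones (95% exact interval 93.5 to 99.8%), and the next Exo1DA/DA mouse in 2.01%. The Exo1+/+ mice ran from 0.0104 through 1.52 to 5.11%, and the Exo1-/- mice were at 1.42, 0.00393 and 1.19%. The Exo1DA/DA mean of 13.2% ± 34.3 was 11.4 percentage points above Exo1+/+, and 0.684 below it without dataset 301. Nearly all clones with this change in that mouse were also mutated at nucleotide 180, 98.1% of its clones.

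Nucleotide 154, also in CDR2, had its highest value in an Exo1+/+ mouse, and G154A (D52N) led in that genotype. It ran from 0.00270 through 0.930 to 20.1% in Exo1+/+ mice and from 0 through 0.00295 to 1.46% in Exo1DA/DA mice, and the 3 Exo1-/- mice were all below 0.01%. The mean difference between Exo1DA/DA and Exo1+/+ was -3.39 percentage points (exact permutation p = 0.0926) and -0.671 without the largest Exo1+/+ dataset. With each lineage counted 1 time the difference was 0.0348 (exact permutation p = 0.964).

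In CDR1, nucleotides 83 and 84 form codon 28 with the base before them, and only nucleotide 169 was higher in Exo1-/- mice than these, which stood at 14.9% ± 13.0 each. The Exo1-/- values were 21.2, 23.6 and 0.00351% at nucleotide 83, and 21.2, 23.6 and 0.00702% at nucleotide 84. In Exo1-/- mice 99.98% of the clones mutated at 83 were also mutated at 84, so these are tandem changes, C83T (T28I) with the silent C84T. In the reverse direction, 99.3, 99.2 and 99.97% of the 9.07, 5.04 and 75.0 clones mutated at 84 also had the change at 83. The pair is thus not particular to Exo1-/- mice. In Exo1+/+ mice nucleotide 83 ran from 0.00170 through 0.926 to 19.7% and 25.8% of these clones had the change at 84 as well, and in Exo1DA/DA mice it ran from 0 through 1.01 to 12.5% with 24.9%. Counting each lineage 1 time turned the Exo1-/- difference from Exo1+/+ at nucleotide 83 from 9.67 to -2.28 percentage points, and neither passed the exact permutation test (p = 0.183 and 0.667).

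Codon 30 was hit by different changes. In Exo1+/+ clones 93.5% of the mutations at nucleotide 89 were the transversion C89G (T30S), most of them in the largest Exo1+/+ dataset, which had the site mutated in 23.2% of clones (95% exact interval 18.7 to 28.1%). In Exo1DA/DA clones 97.5% were the transition C89T (T30I), spread over 4 mice above 5%, and in Exo1-/- clones 100% were. The Exo1DA/DA mean was 8.37% ± 10.3 against 4.14% ± 8.65 in Exo1+/+ and 2.603% ± 2.25 in Exo1-/- mice. At the neighbouring nucleotide 90 the silent C90T reached 1% in 3 Exo1DA/DA mice and in 0 mice of the other genotypes, and 99.9% of its clones carried the change at 89 too.

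In FR2, nucleotide 138 is 23 nucleotides from the nearest hotspot site, and its main change G138A is silent. It was the second highest site of Exo1+/+ mice, at 8.45% ± 10.2, followed by 5.37% ± 11.02 in Exo1DA/DA mice, and stood at 0.860% ± 0.754 in Exo1-/- mice. Exo1DA/DA minus Exo1+/+ was 0.0490 percentage points without the largest Exo1+/+ dataset and -6.91 without the Exo1DA/DA dataset 296, so it turned on single mice. The Exo1+/+ values ran from 0.00270 through 2.76 to 27.2%, those of Exo1DA/DA mice from 0.00278 through 0.894 to 32.2%, and the Exo1-/- values were 1.41, 0.000393 and 1.17%. Of the Exo1DA/DA clones mutated at 138, 85.1% were also mutated at 164, nearly all of them in dataset 296, against 23.5% in Exo1+/+ clones. The tryptophan codon 36 of FR2, part of the conserved core of the V domain, was altered by G108T (W36C) in 20.8% of clones of the largest Exo1-/- dataset (95% exact interval 16.0 to 26.4%), and in under 0.01% of the clones of the other Exo1-/- mice.

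In FR3, the cold-motif site at nucleotide 227 carried C227T (S76F) in 29.3% of clones of the Exo1+/+ dataset 290 (95% exact interval 21.6 to 38.1%) and in 1.06% of dataset 289, and stayed under 0.02% in the other 16 mice. Nucleotide 195, also in the cold motif, was mutated in 32.0% of clones of the Exo1DA/DA dataset 298 (95% exact interval 19.5 to 46.7%) by the silent G195A, and in 3.67% of the Exo1+/+ dataset 289 by G195C (K65N). Datasets 290 and 298 were among the 3 mice whose cold-motif sites were above the others. Nucleotide 267 reached 1% in 12 of 18 mice, with 0.0426, 1.81 and 19.4% as lowest, median and highest Exo1+/+ value, 0.00185, 1.28 and 7.34% in Exo1DA/DA mice, and 1.76, 26.9 and 0.883% in the Exo1-/- mice. At this site G267C (E89D) made up 65.7% of the mutations in Exo1+/+ clones, and the silent G267A 97.5% in Exo1-/- clones.

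**Figure D5:**
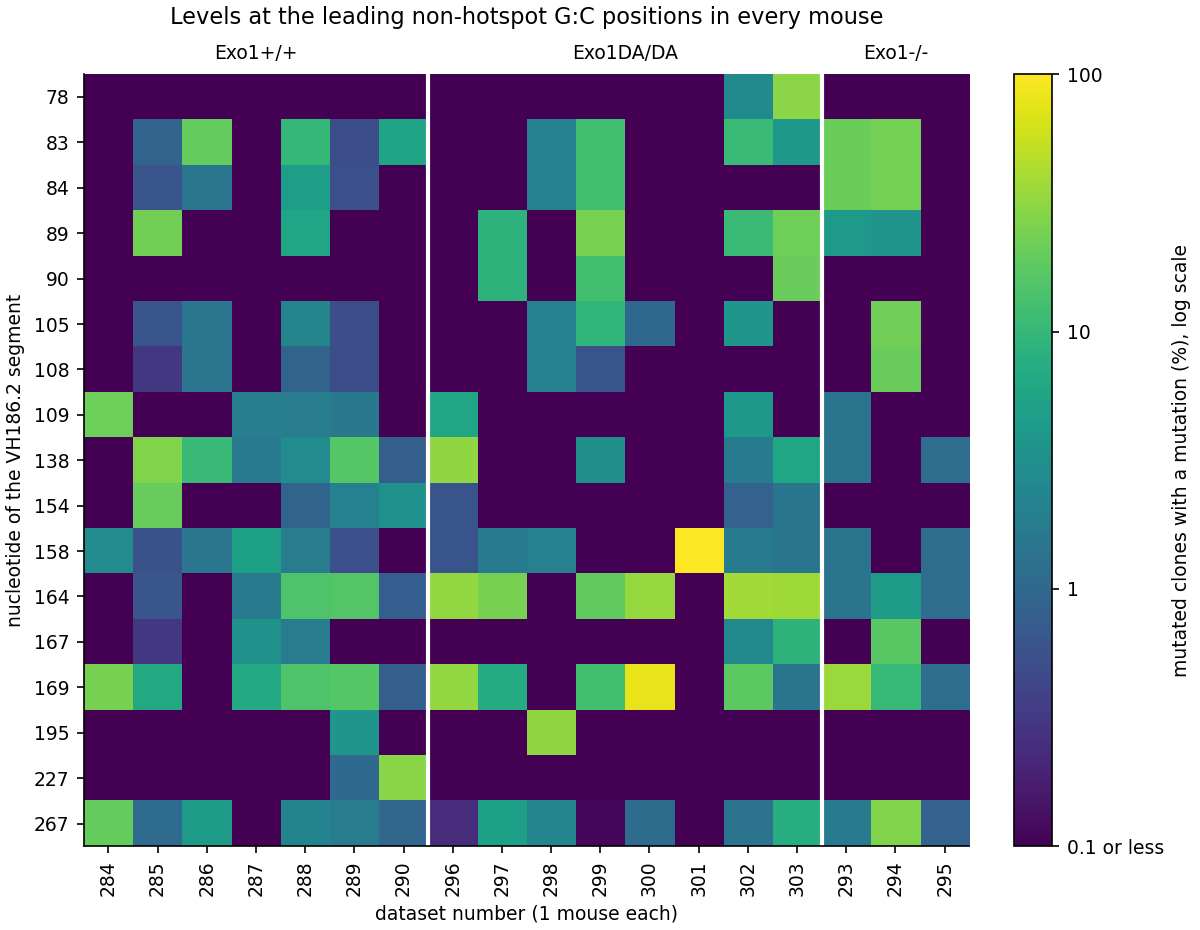
Colours give, on a log scale, the percentage of mutated clones with a mutation at the leading non-hotspot G:C positions (rows) in each of the 18 mice (columns, by dataset number), with values of 0.1% or less in the darkest colour. Nucleotide 164 is bright in 6 of 8 Exo1DA/DA mice, and nucleotides 158, 195 and 227 exceed 10% in 1 mouse each.

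Tested 1 by 1, few positions separated the genotypes. Between Exo1DA/DA and Exo1+/+ mice 3 of the 93 sites, nucleotides 50, 140 and 164, had an unadjusted exact permutation p under 0.05, which is 3.23% of them, while 5.07% of all 276 positions did. Nucleotides 50 and 140 differed by only -0.00673 and 0.00708 percentage points, less than 1 clone in any mouse. Between Exo1-/- and Exo1+/+ mice 0 of the 93 sites did, against 1.09% of all positions. After adjustment over the 276 positions 0% of all positions, and so 0 of the 93 sites, passed in either comparison. For Exo1-/- the smallest p the exact test allows, 0.0167, leaves little room to pass such an adjustment.

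Clones mutated at a non-hotspot site usually carried a hotspot mutation too. This held for 82.5% ± 16.3 of them in Exo1+/+ and 96.3% ± 5.57 in Exo1DA/DA mice, with 92.8% ± 7.08 in Exo1-/- mice, against 44.9% ± 15.2, 50.9% ± 35.8 and 45.2% ± 41.0 of the mutated clones without a non-hotspot change. The number of mutations per clone was not held fixed in this description. In dataset 301, 98.1% of clones had a non-hotspot change, so few clones were left without one. At least 2 non-hotspot sites were mutated in 23.2% ± 11.9, 27.8% ± 16.9 and 23.1% ± 20.9 of clones, and the largest number in 1 sequence was 10, in the Exo1-/- dataset 293.

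Amino acid replacements made up 70.7% of the mutations at these sites in Exo1+/+ and 67.0% in Exo1DA/DA mice, with 60.8% in Exo1-/- mice, beside the 73.1% that all possible substitutions and the 61.3% that all possible transitions would give. The differences from Exo1+/+ did not pass the exact permutation test (p = 0.736 and 0.417, adjusted p = 0.9 and 0.648). Dataset 301, led by P53L, was at 99.8%, and dataset 298, led by the silent change at nucleotide 195, at 23.4%. Changes at these sites to a stop codon were rare, with means of 0.282, 0.102 and 0.126% of their mutations in Exo1+/+, Exo1DA/DA and Exo1-/- mice.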

How the data were processed

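VH186.2 (IGHV1-72, Ighv1-72 in RefSeq) was sequenced from spleen RNA of 18 mice. The authors collapsed paired reads by molecular identifier, used IMGT/HighV-QUEST to define clones by CDR3, and in each of 1000 iterations drew 1 sequence for every clone; tool versions and a genome build are not given in the sources used here. The deposited files list other values than counts, 1 mutation per line, by nucleotide position, base change, dataset number, iteration and hotspot mark, with 1 list for each genotype. They carry no link from dataset number to a labelled mouse.

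Each sequence was weighted by its share of iterations, and measures were computed per mouse with Python 3.11.15, NumPy 2.4.6 and SciPy 1.17.1. Genotypes were compared over mice with 2-sided exact permutation tests (Benjamini-Hochberg over 14 comparisons, or over 276 positions), and classes of sites within mice with sign-flip permutation tests. The germline sequence was rebuilt from the lists, and codons are numbered from nucleotide 1 of the segment. Named positions are the 8 highest sites of each genotype, and the 3 largest rises, 3 largest falls and 3 lowest p in each comparison. Within a mouse, sequences of 4 or more mutations formed a lineage when linked by a Jaccard index of 0.7 or above. The same index marked a sequence as shared when reached by one of another mouse, from 6 mutations on. The sites and all lists were chosen with earlier results of these data known. Alternatives changed the weighting, the sites, the test and the mice. The code was tested on simulated data. Depth is the number of mutated clones, 21.0 to 323.9 per mouse; intervals (Clopper-Pearson, 95%, on rounded clones) and limits for a count of 0 (3 clones) cover counting error only.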

Additional observations from a re-analysis of the deposited data

Results flagged for a closer look

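In 40 groups of 7 or 8 mice (16 of summary measures, and 24 of leading positions at which a mouse reached 5% of clones), 15 held a mouse that stood apart from all others by most of the group's range. Chance marks about 1 in 20 groups that were not chosen for their values, but the positions were kept because a mouse was high there, so that share cannot be set against their number. The 3 Exo1-/- mice were too few for this check. Of the summary measures, cold-motif minus other sites was 0.955 percentage points in the Exo1+/+ dataset 290, and the transition share was 62.2% in the Exo1DA/DA dataset 300, the nearest other mouse being at 85.5%.

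Among positions in Exo1+/+ mice, the dataset with the most clones stood apart at nucleotides 89 with 23.2% and 154 with 20.1% of clones, dataset 284 at nucleotides 109 with 21.6% and 267 with 19.4%, and dataset 290 at nucleotide 227 with 29.3%. In Exo1DA/DA mice, dataset 299 did so at nucleotides 84 with 12.5% and 105 with 9.35%, dataset 303 at nucleotides 78 with 29.8% and 167 with 8.69%, and dataset 296 at nucleotide 138 with 32.2%. Dataset 301 had nucleotide 158 mutated in 98.1%, dataset 300 nucleotide 169 in 80.3% and dataset 298 nucleotide 195 in 32.0% of clones. Nucleotide 164, high in 6 of 8 Exo1DA/DA mice, had no such mouse.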

How the results depend on the processing

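Values are percentage points, Exo1DA/DA or Exo1-/- minus Exo1+/+, unless within mice. Over 202 checks of the main comparisons that left out no mouse, 152 kept their direction and their side of the permutation test's threshold, and the exceptions follow. Using only 1 part of the iterations or the absolute difference as the test statistic gave no exception. The causes of the changes were not tested. Leaving out the CDRs, counting a lineage at most 1 time and the other test statistic were chosen after seeing the data. Counting each lineage 1 time also raises rarely drawn lineages, so that dataset 299 went from 32.1 to 465 clones.

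With each distinct mutation counted 1 time per mouse, the mean percent per site for Exo1-/- was -0.369, the share of G:C mutations 1.72 (Exo1DA/DA) and 2.27 (Exo1-/-), the transition share for Exo1DA/DA -6.80, G minus C for Exo1-/- 0.0793, near minus far for Exo1DA/DA -0.0491 and the replacement share 0.201 and 1.06. Within mice G minus C was then -0.160, cold minus other 0.140 and near minus far -0.156. With each lineage counted 1 time, G minus C was 0.0554 and 0.385, nucleotide 154 for Exo1DA/DA 0.0348, and for Exo1-/- nucleotide 83 -2.28 and nucleotide 105 -0.758. In either comparison 1 site (1.08%) then had p under 0.05, against 1.81% and 0.362% of all 276 positions. With each lineage counted at most 1 time, clones mutated in Exo1-/- were at -0.560, the transition share of Exo1DA/DA at 24.1, G minus C of Exo1-/- at 0.305, and nucleotides 83 and 105 at -2.61 and -0.800, with 1 site under 0.05 for Exo1DA/DA, against 4.71% of all positions. Without shared sequences the transition share of Exo1DA/DA was 26.9 and 6 sites (6.45%) were under 0.05, against 13.0% of all positions.

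With the ends and codon 33 included, clones mutated in Exo1-/- were at -9.18 and the mean per site at -0.254, the transition share of Exo1DA/DA at 26.5 and near minus far within mice at 0.711. Without the most mutated position of each genotype the values were -1.13 for clones mutated in Exo1-/-, 20.5 for the transition share of Exo1DA/DA and -0.461 for G minus C within mice. With hotspots narrowed to WRCY/RGYW, clones mutated were at 25.3 and -0.0738, the mean per site of Exo1DA/DA at 0.945, its share of G:C mutations at 7.95 and G minus C within mice at -0.375. With the CDRs left out, clones mutated were at -8.30 and -8.57, the mean per site at -0.0530 and -0.214, and for Exo1DA/DA the share of G:C mutations at -10.1 (p = 0.0121) and near minus far at 0.631 (p = 0.0497), which both passed the exact permutation test, with cold minus other within mice at -0.337.

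With mice pooled and a chi-squared test, the kind the authors used, which takes clones as independent, Exo1DA/DA was at 15.9 for clones mutated, 0.407 for the mean per site, -3.13 for the share of G:C mutations, 19.98 for transitions and 6.45 for replacements. Exo1-/- was at 11.5, 0.280, -8.40, 12.2 and -7.38 in the same order. Each of these passed, with p from 1.14e-28 to 0.00812.

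Leaving out 1 mouse at a time, for Exo1DA/DA the mean per site ran from 0.350 to 0.587 (p under 0.05 in 2 of 15 cases), the share of G:C mutations from -2.46 to 1.47, transitions from 12.5 to 22.4 (4 of 15), G minus C from -0.664 to 0.104, near minus far from 0.338 to 0.918 (1 of 15), replacements from -8.38 to 2.54 and sites under 0.05 from 2 to 5 (2.15 to 5.38%, against 4.35 to 6.88% of all positions). For Exo1-/- clones mutated ran from -10.8 to 16.5, the mean per site from -0.258 to 0.472, the share of G:C mutations from -8.84 to -5.11 (2 of 10) and sites under 0.05 from 0 to 1 (at most 1.08%, against 0 to 2.90% of all positions). With an Exo1-/- mouse left out, the exact test cannot give a p under 0.05, so those cases could not pass. Within mice G minus C ran from -0.134 to 0.182 and near minus far from 0.244 to 0.483 (2 of 18), while cold minus other stayed between -1.29 and -1.08 and passed in all 18. Nucleotide 138 in Exo1DA/DA ran from -6.91 to 0.0490, positive without the largest Exo1+/+ dataset, nucleotide 158 from -0.684 to 13.3, negative without dataset 301, and nucleotide 105 in Exo1-/- from -0.709 to 10.5, negative without the largest Exo1-/- dataset. No paired analysis was possible because the lists carry dataset numbers that the labels' mouse numbers do not match. The number of clones limits what a single mouse can show, and 3 Exo1-/- mice limit that comparison.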
